A study of Mus musculus with 9 samples.

Results

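Collagen chains were followed here across cultured mouse squamous carcinoma cells, leaving out the 3 well-known chains of collagen VI (Col6a1, Col6a2 and Col6a3). The members were all genes whose array annotation symbol has the form of a collagen chain (Col, a type number, a and a chain number), and each was read on the probe set that was brightest on average across the 9 arrays. This gave 39 genes of the 18194 measured, and all 39 symbols were the same in RefSeq. The rule itself used only symbols and mean brightness, but this family was picked with earlier results of these data known.

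The cells were SCCVII, a tumour line from an oral squamous cell carcinoma that arose spontaneously in mice of the strain written CH3 in the labels. There were 3 groups of 3 arrays: parental cells grown in standard culture (PA), lines recovered from tumours that these cells formed in stroma without irradiation (NIR), and lines recovered from tumours formed in pre-irradiated stroma (IR). The labels give IR tumours as hypoxic, invasive and metastatic, with IR lines keeping invasion and metastasis in normoxic culture, and NIR tumours and lines as poorly invasive and metastatic. IR minus NIR sets lines from irradiated stroma against lines that had also passed through a tumour, and the comparisons with PA ask what differed from the culture that was injected.

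Collagens are secreted or membrane-bound proteins built from 3 chains wound into a triple helix. Fibrillar types assemble into the cables that give tissue its tensile strength, type IV forms the sheet of the basement membrane, and other types sit on fibril surfaces, build open lattices or span the cell membrane. Fibroblasts make most fibrillar collagen in connective tissue, and tumour cells with mesenchymal features can make it as well.

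Values are log2 RMA signals, in which a step of 1 is a doubling. RMA is a standard Affymetrix method that corrects background, equalises the arrays and merges the probes of a set. The medians of the 9 arrays lay between 4.45 and 4.52, and a gene above its array's median on all 9 arrays is called bright here. Differences were tested with limma over all 18194 genes, with Benjamini-Hochberg adjustment and a threshold of 0.05. Signals of different probe sets are not on one scale, so levels are compared between arrays for 1 probe set and not between genes. The series calls the 9 samples independent and does not say if those of 1 group trace back to different tumours, lines or dishes. The p-values therefore measure the spread between these samples, which may be technical. In RNA from whole cultures, fewer cells of a type and less RNA per cell cannot be told apart.

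The labelled cell type was set against marker lists. Of 12 epithelial and squamous markers 7 were bright, with the simple-epithelium keratins Krt8 at 12.6 to 12.8 and Krt18 at 11.2 to 12.0, whereas Trp63, Krt14, Krt16, Krt17 and Cdh1 (E-cadherin) were below the median on all 9 arrays. Krt18 rose in IR, by 0.57 against NIR (limma adjusted p = 0.018) and by 0.55 against PA (limma adjusted p = 0.0146), and was the only gene of all these marker lists to pass in IR against NIR. Of 13 fibroblast markers other than collagens 10 were bright, and Thy1 and Fap were below the median on all arrays. The mean of the fibroblast list was 5.63 to 5.82 over the PA arrays, 5.90 to 6.13 over NIR and 5.86 to 6.11 over IR. That mean was carried by few genes, since the median difference from PA was 0.08 in IR and 0.06 in NIR. Of the 13 Dcn (decorin, which coats collagen fibrils) rose in IR against PA by 1.24 (limma adjusted p = 0.00265) and in NIR against PA by 0.81 (adjusted p = 0.039), and Lum (lumican) rose in NIR against PA by 1.29 (limma adjusted p = 0.0241). Dpt (dermatopontin) was 1.76 higher in NIR than in PA and did not pass (limma adjusted p = 0.106), and others were lower there, such as Acta2 at -0.21 and Pdgfrb at -0.15. The mean of 15 macrophage markers was 4.59 to 4.72 in PA, 4.77 to 4.87 in NIR and 4.80 to 5.19 in IR. In that list Mrc1 alone passed, higher in NIR than in PA by 0.75 (limma adjusted p = 0.0156), and Lyz2 (lysozyme) read 8.25 in IR3 beside 5.71 and 5.78 in the other IR arrays. An unadjusted limma p below 0.05 was reached by 6 of the 15 in IR against PA, where their median difference was 0.18. In IR against NIR 2 reached it and in NIR against PA 2. The fibroblast list had 2, 4 and 3 of 13 in that order, and the epithelial list 2, 1 and 0 of 12. The shares of all genes were 8.59%, 15.9% and 12.1%. Of 10 endothelial, 7 pericyte and muscle and 5 cartilage markers none passed the limma test in a comparison, with 3, 1 and 3 results at an unadjusted p below 0.05 over the 3 comparisons. The endothelial cadherin Cdh5 came nearest, at -0.60 in IR minus NIR (limma adjusted p = 0.0682) and 0.64 in NIR minus PA (limma adjusted p = 0.063). What part these markers have in the collagen values below was not tested.

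Bright members came from most collagen classes. Of the 39 members 21 were bright, against 61.7% of all genes, 15 lay below the array median on all 9 arrays, and Col9a3, Col4a6 and Col13a1 crossed it. Of the 11 fibrillar chains 8 were bright, of the 6 type IV chains 3, of the 9 chains that bind to fibril surfaces (FACITs) 5, and of the 4 transmembrane collagens only Col25a1. Both multiplexins, Col15a1 and Col18a1, were bright, as were Col8a1 of the 3 lattice-forming chains and Col7a1, the anchoring fibril that ties basement membrane to the tissue beneath. Col6a4 and Col6a5, further chains of the collagen VI family, and Col26a1 were below the median on every array, as were the fibrillar chains Col11a1, Col11a2 and Col24a1.

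No member passed the limma test in any comparison. In IR against NIR 0 of 39 members passed, beside 1.65% of all genes, and 4 had an unadjusted p below 0.05, beside 15.9% of all genes. In IR against PA 0 of 39 passed, beside 1.06%, with 3 below an unadjusted 0.05, beside 8.59%. In NIR against PA 0 of 39 passed, beside 1.3%, with 4 below an unadjusted 0.05, beside 12.1%. The F test over the 3 groups also gave 0 of 39, beside 2.34%, with 4 below an unadjusted 0.05, beside 15% of all genes. The number of members passing was 0 or 1 in every comparison under every other setting tried, and a member that passed was Col3a1, Col1a1 or Col5a2. The smallest limma adjusted p among members was 0.26 in IR against NIR, 0.175 in IR against PA and 0.0904 in NIR against PA. IR minus PA and NIR minus PA use the same PA arrays, and each group enters 2 of the comparisons, so the comparisons are not independent.

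The size of the differences was also small for most chains. The median difference over the 39 members was 0.03 in IR minus NIR, 0.05 in IR minus PA and 0.03 in NIR minus PA, beside medians over all genes of 0.0014, 0.0043 and 0.0046. The members ranged from -0.33 to 0.48 in IR minus NIR, from -0.12 to 0.98 in IR minus PA and from -0.20 to 0.51 in NIR minus PA. In each comparison the 95% interval on the brightest probe set reached a doubling for 1 member, Col1a1. For every other member a doubling lay outside that interval. On the other Col5a2 probe set the IR minus NIR interval, 0.35 to 1.02, also reached a doubling. Of the 39 members 18 were not bright, and whether the arrays would show a doubling at such low signals was not tested. Differences above 0 were found for 24, 29 and 24 of 39 members in the order of those comparisons. Among the 21 bright members 13, 17 and 13 were above 0. The share of all genes above 0 was not counted, and the medians over all genes were above 0 too. These counts are therefore not read as a rise of the family.

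**Figure D1:**
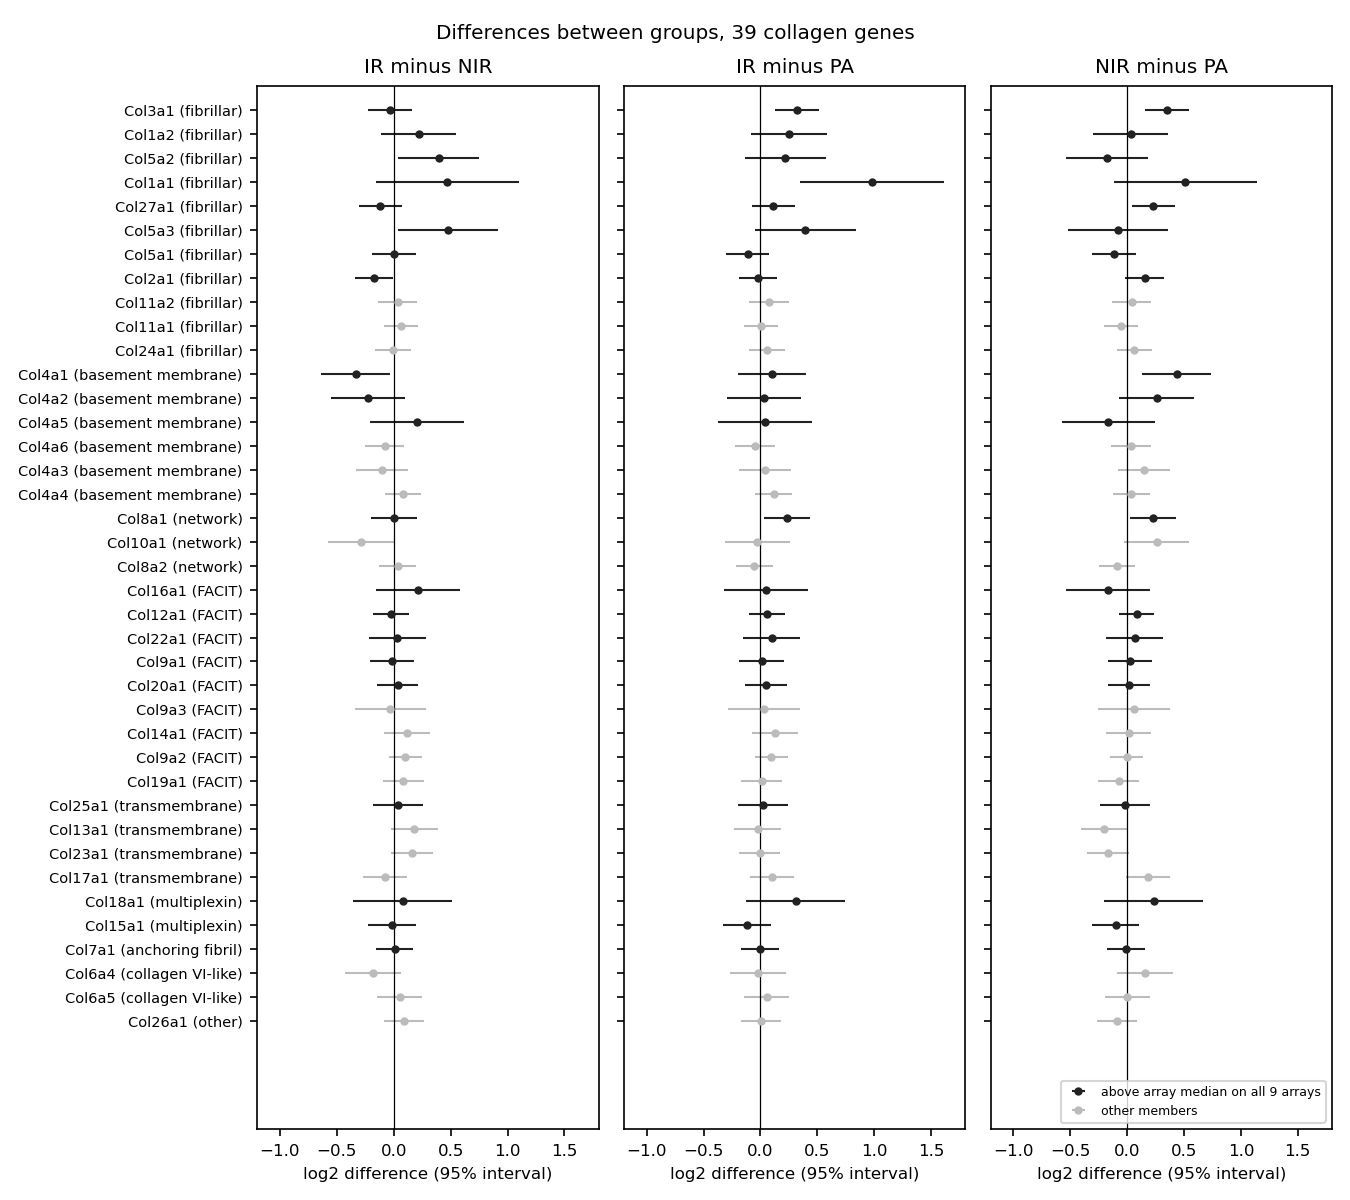
Difference in log2 RMA signal for each of the 39 collagen chains, arranged by class, in IR minus NIR, IR minus PA and NIR minus PA; points are differences of means of 3 arrays and bars are 95% intervals from limma, with members above the array median on all 9 arrays in black and the others in grey. Col1a1 has the largest difference, 0.98 in IR minus PA, and no member passed the adjusted test in any panel.

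A looser description counts members whose 2 groups of 3 arrays did not overlap. In IR against PA 6 members were higher without overlap (Col3a1, Col5a2, Col18a1, Col8a1, Col1a1 and Col9a2), beside 7.26% of all genes, and 0 were lower, beside 7.43%. In NIR against PA 3 were higher (Col3a1, Col4a1 and Col10a1), beside 7.82%, and 0 were lower, beside 7.73%. In IR against NIR Col9a2 was higher, beside 8.69%, and Col4a1 lower, beside 9.4%. In all, 8 of the 39 members (20.5%) stood apart in at least 1 comparison, beside 30.4% of all genes, and of the 39 only Col3a1 did so in both comparisons with PA.

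Col3a1 encodes the chain of type III collagen, the fibrillar collagen of skin, vessels and healing wounds. On its brighter probe set the IR arrays read 11.61, 11.64 and 11.47, the NIR arrays 11.61, 11.75 and 11.46, and the PA arrays 11.26, 11.16 and 11.33. All 6 arrays of tumour-derived lines were thus above all 3 PA arrays, while IR and NIR overlapped. The difference from PA was 0.32 in IR (SE 0.088, 95% interval 0.13 to 0.51, limma adjusted p = 0.175) and 0.35 in NIR (interval 0.16 to 0.55, adjusted p = 0.0904), neither past the threshold. IR minus NIR was -0.03 (interval -0.22 to 0.16).

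The other Col3a1 probe set gave a larger difference with less spread. It read 8.03, 8.08 and 7.93 in IR, 8.07, 8.09 and 7.94 in NIR, and 7.42, 7.51 and 7.39 in PA. Tested among all 34944 single-gene probe sets, Col3a1 signal on this set rose 1.49-fold in IR against PA (log2 0.57, SE 0.074, limma adjusted p = 0.00308) and 1.51-fold in NIR against PA (log2 0.59, adjusted p = 0.00203). The call held when any single array was left out, with adjusted p from 0.00394 to 0.0257 in IR against PA and from 0.00224 to 0.0184 in NIR against PA, a check added after the values were seen. The members have 78 probe sets in all, and this was the only one to pass in each comparison with PA, beside 0.69% and 0.836% of all probe sets, while 0 of 78 passed in IR against NIR, beside 0.881%. Whether Col3a1 is called therefore depends on which of its probe sets is read. Dcn also rose in both comparisons with PA, with the values given above, while the median difference of the fibroblast list was 0.08 in IR minus PA and 0.06 in NIR minus PA.

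The RefSeq table of upstream sequences held Col3a1 and Col1a2, both bright fibrillar chains, and they are shown because Col3a1 stood above PA in both derived groups and Col1a2 did not. Each run is the 250 bases before the transcript start in GRCm38.p6, on the plus strand, at chr1:45311288-45311537 for Col3a1 and chr6:4505368-4505617 for Col1a2. Capitals mark matches, on either strand, to the CCAAT box (CCAAT), the TATA box (searched as TATAAA), the GC box (searched as GGGCGG), a core that SMAD proteins can bind (CAGAC) and the core of hypoxia response elements (ACGTG).
Col3a1: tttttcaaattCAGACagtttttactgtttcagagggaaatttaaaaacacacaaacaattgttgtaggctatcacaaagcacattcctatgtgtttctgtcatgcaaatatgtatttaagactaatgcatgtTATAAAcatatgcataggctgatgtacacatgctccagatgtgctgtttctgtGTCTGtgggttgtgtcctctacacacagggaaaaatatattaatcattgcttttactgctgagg
Col1a2: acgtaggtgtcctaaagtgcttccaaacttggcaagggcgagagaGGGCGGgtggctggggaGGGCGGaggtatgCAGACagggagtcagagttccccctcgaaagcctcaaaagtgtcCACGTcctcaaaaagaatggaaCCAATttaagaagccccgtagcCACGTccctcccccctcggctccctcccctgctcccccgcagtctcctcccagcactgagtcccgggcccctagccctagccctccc

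The Col3a1 run held TATAAA beginning 117 bases before the start, with CAGAC at 239 bases before it and, on the other strand, at 64. The Col1a2 run held GGGCGG at 205 and 188 bases before the start, CAGAC at 175, CCAAT at 109, and ACGTG on the other strand at 131 and 87. These short motifs are common: of 32851 windows of this length for all genes, CCAAT was in 33.8%, TATAAA in 12.4%, GGGCGG in 32.7%, CAGAC in 42.2% and ACGTG in 16.6%. Windows were at hand for 30 of the 39 members, some with more than 1 start. Among their 32 windows GGGCGG was in 19 (59.4%), CCAAT in 13, CAGAC in 13, TATAAA in 5 and ACGTG in 4. A match is a run of letters and was not tested as a binding site.

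Col1a1 and Col1a2 encode the chains of type I collagen, the main fibrillar collagen of bone, tendon and skin. Col1a1 read 7.46, 7.28 and 6.96 in IR, 6.83, 7.46 and 6.01 in NIR, and 5.98, 6.56 and 6.22 in PA. IR was above PA on every array, and the NIR arrays spanned most of both ranges. IR minus PA was 0.98, a 1.97-fold higher signal (SE 0.29, 95% interval 0.35 to 1.61, limma adjusted p = 0.215), and on this probe set passed only when NIR3 was left out of the shared estimate of spread (limma adjusted p = 0.0442) or in a fit of IR and PA alone (limma adjusted p = 0.0325). IR minus NIR was 0.47 (interval -0.16 to 1.10) and NIR minus PA 0.51 (interval -0.12 to 1.14).

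A second Col1a1 probe set placed the groups in another way. It read 6.41, 6.37 and 6.32 in IR, 6.20, 5.84 and 5.50 in NIR, and 5.66, 5.57 and 5.83 in PA. Here IR was above both other groups on every array, by 0.52 against NIR (limma adjusted p = 0.114) and by 0.68 against PA (limma adjusted p = 0.0661). In an alternative added after seeing the data, leaving out NIR1 made both pass (limma adjusted p = 0.0365 against NIR and 0.0096 against PA), and leaving out NIR3 made the difference from PA pass (limma adjusted p = 0.0138). Both probe sets had IR above PA, and they differ in NIR2, which was the highest NIR array on the first and not on the second.

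On its brightest probe set Col1a2 did not share that separation. It read 11.59, 11.49 and 11.52 in IR, 11.10, 11.72 and 11.12 in NIR, and 11.26, 11.09 and 11.50 in PA. The 3 groups overlapped, IR minus PA was 0.25 (95% interval -0.08 to 0.58), IR minus NIR 0.22 (interval -0.11 to 0.55) and NIR minus PA 0.03 (interval -0.30 to 0.36). Its other bright probe set read 10.03, 9.99 and 10.11 in IR, 9.62, 10.34 and 9.57 in NIR, and 9.82, 9.65 and 9.82 in PA. There IR was above PA on every array, by 0.28 (interval -0.08 to 0.64, limma adjusted p = 0.753). Whether IR and PA overlap for Col1a2 thus depends on the probe set read. No test of the difference between the Col1a1 and Col1a2 responses was run, since they were read by different probes.

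Type V collagen regulates the diameter of fibrils, and its chains Col5a1, Col5a2 and Col5a3 gave different patterns. Col5a2 read 10.20, 10.17 and 10.15 in IR, 9.39, 10.25 and 9.69 in NIR, and 9.89, 9.92 and 10.05 in PA. The IR arrays lay close together and above PA, and NIR2 lay above every IR array while NIR1 and NIR3 lay below every PA array. IR minus NIR was 0.40 (95% interval 0.04 to 0.75, limma adjusted p = 0.26), and without NIR2 it was 0.63 and passed (limma adjusted p = 0.018).

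The other Col5a2 probe set read 7.01, 7.13 and 7.14 in IR, 6.01, 6.68 and 6.55 in NIR, and 6.80, 6.80 and 6.49 in PA. There IR was above NIR and PA on every array, with IR minus NIR at 0.68 (95% interval 0.35 to 1.02, limma adjusted p = 0.0633) and IR minus PA at 0.40 (interval 0.07 to 0.73, limma adjusted p = 0.496). Its NIR minus PA value was -0.28 (interval -0.62 to 0.05), against -0.18 on the first probe set. Col5a2 is the gene next to Col3a1 in the RefSeq order of chromosome 1, and their NIR minus PA values were 0.35 for Col3a1 and -0.18 for Col5a2, a contrast that was not tested.

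Col5a1, the partner chain of Col5a2, read 5.42, 5.43 and 5.59 in IR, 5.38, 5.57 and 5.46 in NIR, and 5.58, 5.46 and 5.73 in PA. The groups overlapped, and the differences were 0.01 in IR minus NIR (95% interval -0.19 to 0.20), -0.11 in IR minus PA and -0.12 in NIR minus PA. Its 2 other probe sets were each above the array median on only 1 array, and they did not give the same picture. One read 3.93, 3.87 and 4.66 in IR and 3.55, 3.71 and 3.63 in NIR, with IR above NIR on every array by 0.52 (interval 0.16 to 0.89, limma adjusted p = 0.169), and the other gave 0.01.

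Col5a3 had the largest IR minus NIR value of any member, 0.48 (interval 0.04 to 0.92, limma adjusted p = 0.272), but IR3 at 6.70 stood above IR1 at 6.09 and IR2 at 6.12, which lay within the range of NIR (5.37 to 6.16). Its other probe set, below the array median on all arrays, had the opposite sign, -0.19 in IR minus NIR, with IR below NIR on every array (interval -0.39 to 0.02, limma adjusted p = 0.422).

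**Figure D2:**
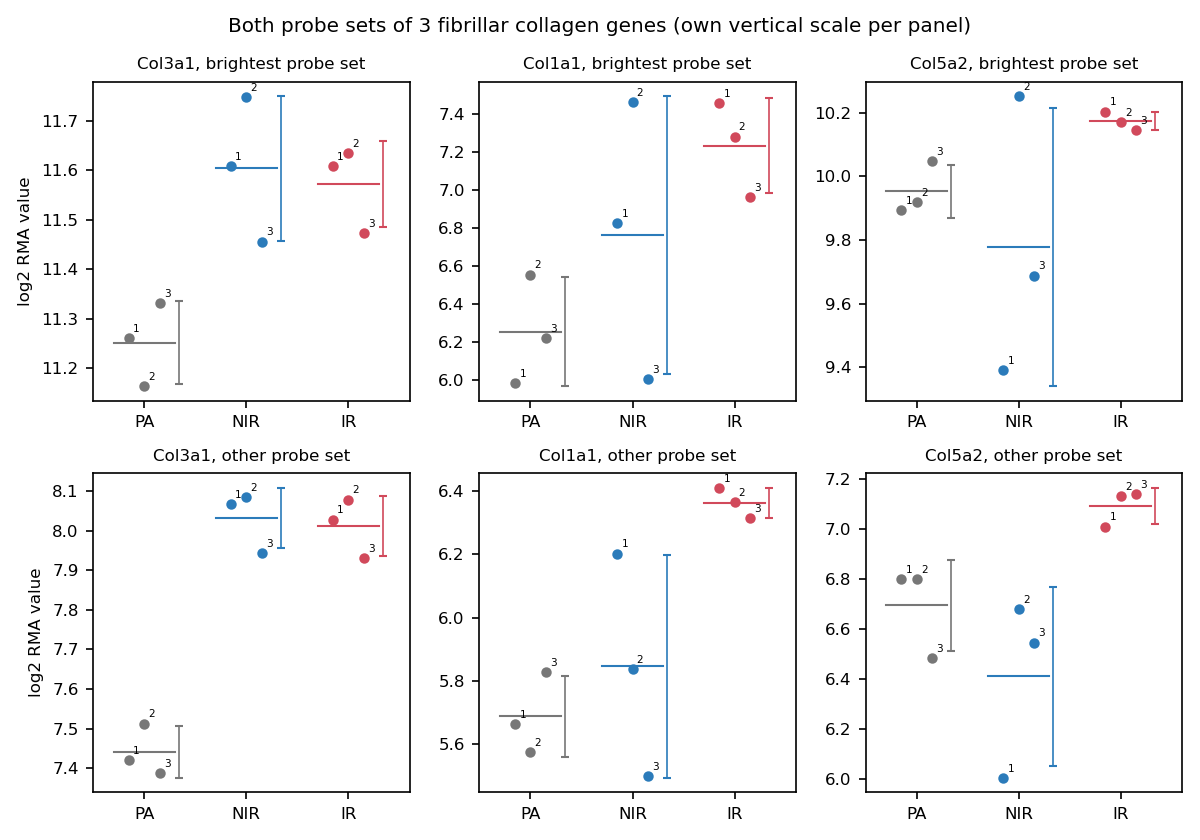
log2 RMA signal on each array for both probe sets of Col3a1, Col1a1 and Col5a2, brightest set above and the other below, with numbered points for arrays, lines at group means and bars of 1 SD to each side (3 arrays a group, own vertical scale per panel). On the other Col3a1 set the 6 IR and NIR arrays lie at 7.93 to 8.09 and the PA arrays at 7.39 to 7.51, and on the other Col1a1 and Col5a2 sets the 3 IR arrays lie above all others.

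The remaining fibrillar chains differed little. Col27a1, a fibrillar chain of cartilage and other tissues, was 0.23 higher in NIR than in PA (95% interval 0.04 to 0.42, limma adjusted p = 0.298), with overlapping groups. Its other probe set, below the array median on all arrays, gave 0.04 (interval -0.14 to 0.22). Col2a1, the main fibrillar collagen of cartilage, was bright by a small margin, at 4.81 to 5.16, and IR minus NIR was -0.17 (interval -0.34 to -0.0044, limma adjusted p = 0.298). Both are named here, with Col5a3, Col8a1, Col4a5 and Col16a1, after their values were seen.

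**Figure D3:**
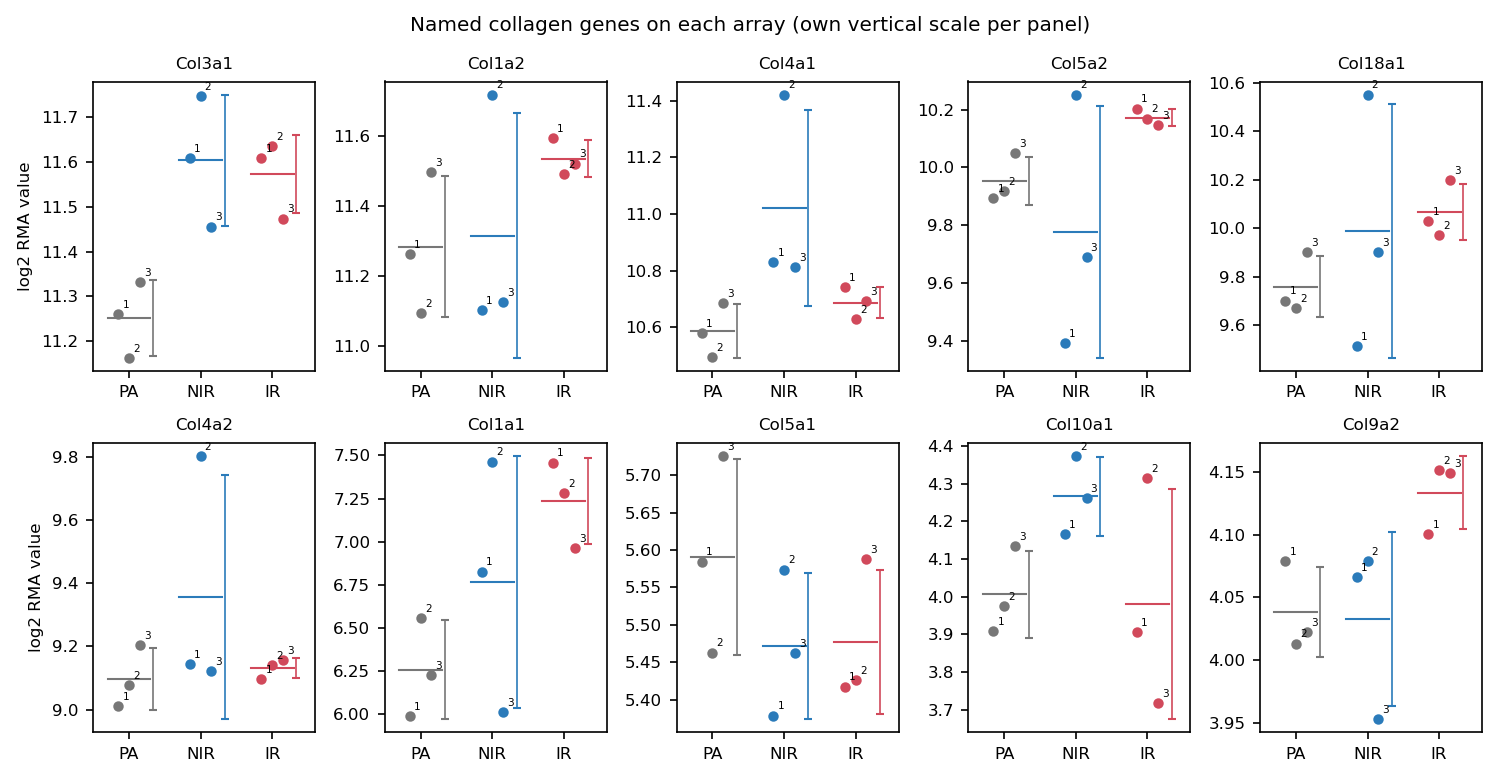
log2 RMA signal of the named collagen chains on each array, with 1 numbered point per array, a line at the mean of the 3 arrays of each group and a bar of 1 SD to each side; each panel has its own vertical scale and 1 probe set. Col3a1 shows 6 IR and NIR arrays above the 3 PA arrays, and NIR2 is the highest NIR array for Col1a2, Col4a1, Col4a2, Col5a2 and Col18a1.

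Among the basement membrane chains, Col4a1 and Col4a2 wind into the common form of type IV collagen found in nearly all basement membranes. Col4a1 read 10.74, 10.63 and 10.69 in IR, 10.83, 11.42 and 10.81 in NIR, and 10.58, 10.50 and 10.68 in PA. NIR was above both other groups on every array, by 0.33 against IR (IR minus NIR -0.33, 95% interval -0.64 to -0.03, limma adjusted p = 0.26) and by 0.43 against PA (interval 0.13 to 0.74, limma adjusted p = 0.206). Much of that rested on NIR2: without it IR minus NIR was -0.13 and NIR minus PA 0.23. Its other probe set gave 0.27 in NIR minus PA and -0.21 in IR minus NIR.

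Col4a2 read 9.10, 9.14 and 9.16 in IR, 9.14, 9.80 and 9.12 in NIR, and 9.01, 9.08 and 9.20 in PA. NIR2 was the only array to stand apart, and without it IR minus NIR moved from -0.22 to -0.0015 and NIR minus PA from 0.26 to 0.04. With all arrays the intervals were -0.55 to 0.10 and -0.07 to 0.58. The 2 genes lie head to head on chromosome 8, and their starts in the RefSeq table are 21 bases apart. Both had their highest value of all 9 arrays in NIR2.

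Of the other type IV chains, which form the more restricted networks of kidney, eye and other sites, only Col4a5 was bright. It read 7.39 in IR3, above the highest PA array at 6.96, and 6.56 and 6.52 in the other IR arrays, and its other probe set placed IR3 at 6.42 beside 6.29 and 6.19. Col4a6 crossed the array median, and Col4a3 and Col4a4 were below it on all arrays.

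Col18a1 is the basement membrane multiplexin whose end fragment is endostatin. It read 10.03, 9.97 and 10.20 in IR, 9.51, 10.55 and 9.90 in NIR, and 9.70, 9.67 and 9.90 in PA. The IR arrays were above the PA arrays, by 0.31 on average (95% interval -0.12 to 0.74, limma adjusted p = 0.748), and the NIR arrays ran from below PA to above IR. Without NIR2 the NIR minus PA value went from 0.23 to -0.05. Col15a1, the other multiplexin, differed by -0.12 in IR minus PA and -0.10 in NIR minus PA.

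Col8a1, a short-chain collagen that builds lattices in vessel walls and under endothelium, read 8.78, 8.79 and 8.82 in IR, 8.93, 8.87 and 8.57 in NIR, and 8.58, 8.50 and 8.60 in PA. IR lay above PA by 0.23 with no overlap (95% interval 0.03 to 0.43, limma adjusted p = 0.471), and NIR by 0.23 with NIR3 inside the PA range (interval 0.03 to 0.43, limma adjusted p = 0.338). Its other probe sets, also bright, had IR above PA without overlap as well, by 0.11 (interval -0.20 to 0.42) and 0.23 (interval -0.16 to 0.61). NIR minus PA on those sets was 0.28 (interval -0.03 to 0.59) and 0.11 (interval -0.27 to 0.50), with overlapping groups. Col10a1, the chain of growth-plate cartilage, was below the median on all arrays at 3.91, 4.32 and 3.72 in IR, 4.17, 4.37 and 4.26 in NIR, and 3.91, 3.98 and 4.13 in PA, and its NIR minus PA value of 0.26 had an interval of -0.03 to 0.55. Col9a2, a FACIT of cartilage fibrils, was likewise below the median on all arrays, at 4.10 to 4.15 in IR, 3.95 to 4.08 in NIR and 4.01 to 4.08 in PA. Its IR values stood clear of both other groups by a margin of at most 0.10 in the means (95% intervals -0.04 to 0.25 against NIR and -0.05 to 0.24 against PA).

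On their brightest probe sets the other FACITs, the transmembrane chains and Col7a1 gave no separation of groups. Among the 9 FACITs the differences on these sets ran from -0.03 to 0.21 in IR minus NIR, from 0.01 to 0.13 in IR minus PA and from -0.16 to 0.08 in NIR minus PA. Another Col12a1 set, below the array median on all arrays, had IR above both other groups on every array. The differences there were 0.11 against NIR (interval -0.03 to 0.26) and 0.12 against PA (interval -0.03 to 0.27). Col16a1, a FACIT at fibril surfaces and near basement membranes, read 7.38, 8.27 and 7.84 in NIR beside 7.97 to 8.17 in IR. Col7a1 differed by 0.01 or less in size in all 3 comparisons, with an interval of -0.16 to 0.17 in IR minus NIR. The transmembrane chains ran from -0.20 to 0.18 over all comparisons.

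A single array, NIR2, read high for many of the bright collagens. It was the highest of the 9 arrays for 11 of the 21 bright members (52.4%), beside 21% of the 11220 bright genes, and above both other NIR arrays for 17 of 21, beside 37.4% of bright genes. Its median distance from the mean of the other NIR arrays was 0.16 over these members and 0.0022 over bright genes. PA3 was above both other PA arrays for 16 of 21, beside 33.3% of bright genes, with a median distance of 0.12. These counts describe single arrays and were noticed in the data.

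The same counts were taken on other probe sets and for genes other than collagens. Of 9 other bright probe sets of the same genes 7 had NIR2 as the highest NIR array, the exceptions being a set of Col8a1 and the second set of Col1a1. PA3 was the highest PA array for 4 of the 9. Of 29 bright genes that modify, fold, process, crosslink or bind collagen NIR2 was the highest NIR array for 21 and PA3 the highest PA array for 17. Of 32 bright genes of the cell type marker lists the counts were 17 for NIR2 and 19 for PA3. The shares of all bright genes were 37.4% for NIR2 and 33.3% for PA3. What sets NIR2 and PA3 apart from their groups was not tested.

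**Figure D4:**
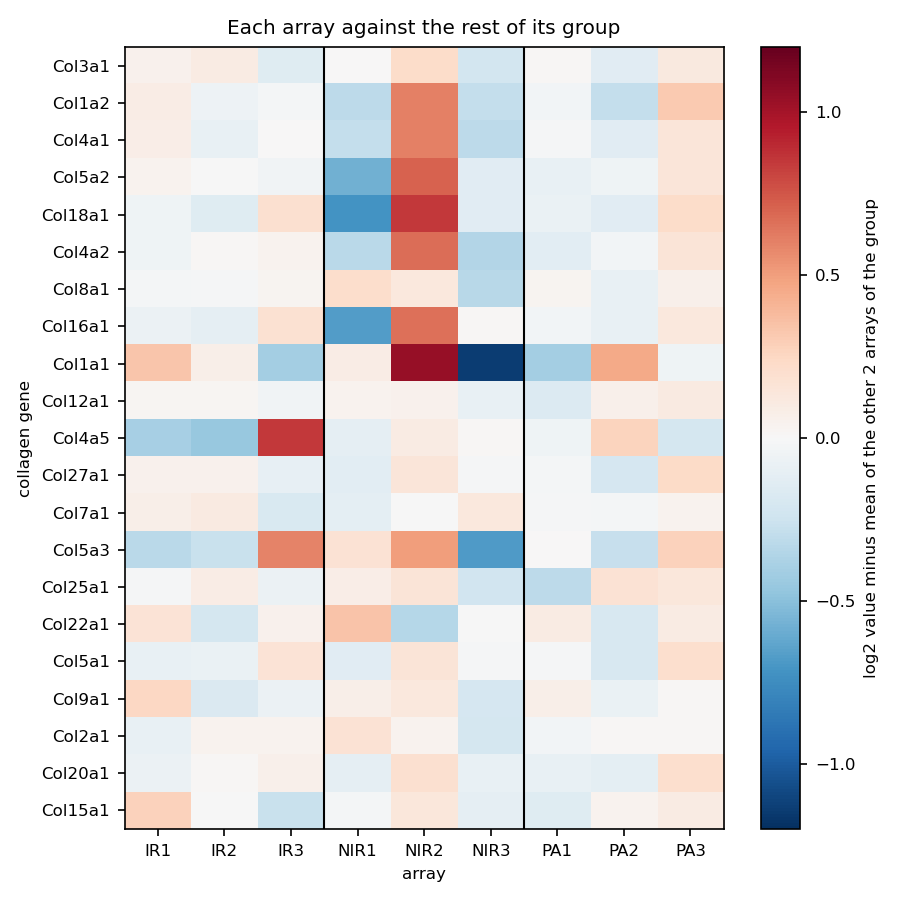
Heat map of the log2 RMA signal of each array (columns) minus the mean of the other 2 arrays of its group, for the 21 bright collagen genes (rows, highest mean signal at the top); red is above and blue below the rest of the group. The NIR2 column is mostly red (17 of 21 genes above both other NIR arrays), as is PA3 (16 of 21), and IR3 stands out for Col4a5 and Col5a3.

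No enzyme or receptor of the collagen pathway passed the test. Of 40 measured genes 0 rose and 0 fell by limma in IR against NIR, IR against PA and NIR against PA. The shares of all genes that passed were 1.65%, 1.06% and 1.3% in that order. At an unadjusted limma p below 0.05 there were 8, 2 and 3 of the 40, beside 15.9%, 8.59% and 12.1% of all genes. The median differences of the 40 genes were 0.05, 0.03 and -0.04. Pcolce, which speeds the removal of the end propeptide of fibrillar collagens, had the smallest adjusted p of the list. It read 11.96, 11.99 and 12.23 in IR, 11.53, 11.67 and 11.87 in NIR, and 11.99, 12.02 and 12.16 in PA, so that NIR was below both other groups on every array (IR minus NIR 0.37, limma adjusted p = 0.0957, and NIR minus PA -0.37, limma adjusted p = 0.134).

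Bmp1, the protease that Pcolce assists, read 7.21, 7.04 and 7.20 in IR and 6.72, 6.78 and 6.98 in PA, a difference of 0.32 (limma adjusted p = 0.208). Serpinh1, the collagen chaperone also called HSP47, was 0.23 higher in IR than in NIR with no overlap (unadjusted p = 0.0212, limma adjusted p = 0.21). Of 15 genes listed as prolyl and lysyl hydroxylases, glycosyltransferases or proteins that work with them, 13 were bright, beside 61.7% of all genes. In IR against NIR 3 of them had an unadjusted limma p below 0.05. P4ha2, below the median on all arrays, was 0.20 higher in IR (limma adjusted p = 0.181), as was P3h4 (limma adjusted p = 0.258). In both genes IR stood above NIR and PA on every array. P4ha3 went the other way, at -0.31 with overlapping groups (limma adjusted p = 0.232). The receptors Ddr1 and Ddr2, tyrosine kinases that bind collagen, gave opposite signs in IR minus NIR, 0.35 and -0.24 (limma adjusted p = 0.246 and 0.28), with overlapping groups.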

How the data were processed

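RNA from 9 SCCVII samples was measured on Affymetrix mouse arrays. The deposited values are log2 signals that the authors made with RMA (per the submitters' processing notes, version and settings not given in the sources used here). The table held 45100 probe sets, of which 34944 carried 1 gene symbol, 932 several, 9160 none and 64 were controls; 34740 of the single-gene sets matched RefSeq by Entrez Gene ID. It held 0 other per-sample columns. Precision is limited by the number of arrays.

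For each gene the probe set with the highest mean was tested with limma 3.58.1 in R 4.3.3 (functions lmFit and eBayes on all 9 arrays, 1 mean for each group, tests 2-sided; 6 residual degrees of freedom and 5.48 prior), Benjamini-Hochberg adjustment over 18194 genes and a threshold of 0.05. Intervals are 95% moderated intervals. The script was tested on simulated data. The members, marker and pathway lists were chosen with earlier results of these data known. Named with every array were members past the threshold, the 3 largest differences without overlap in each comparison, the 6 with the highest mean, and their partner chains. Alternatives were averaging a gene's probe sets, its other probe sets, no _s_at, _x_at or _a_at sets, a filter on dim genes, quantile normalization applied again, centring on the median, trend and robust options in eBayes, the replicate block, a fit of 2 groups alone, and leaving out each array. Leave-one-out and block fits of the second Col3a1, Col1a1 and Col5a2 probe sets were added after seeing the data. Promoter windows came from RefSeq (GRCm38.p6). Fkbp10, Adamts2, Adamts14, Loxl2, Itga11 and Fbn1 were not analysed here. Figures used matplotlib 3.10.9 in Python 3.11.15.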

Additional observations from a re-analysis of the deposited data

How the results depend on the processing

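Counts of collagen members past the limma threshold, 0 in each comparison as reported, became 1 under a few settings. With a gene's probe sets averaged, Col3a1 passed in IR against PA (1 member, 0.45, adjusted p = 0.00929), in NIR against PA (1 member, 0.47, adjusted p = 0.00497) and in the F test (1 member, adjusted p = 0.00548). Without _s_at, _x_at and _a_at probe sets it passed in the same 3 tests with 1 member each (0.57, adjusted p = 0.00233; 0.59, adjusted p = 0.00144; F test, adjusted p = 0.00142), because its other probe set was then the one read. With trend and robust settings it passed in NIR against PA (1 member, adjusted p = 0.0383) and the F test (1 member, adjusted p = 0.0362), and the cause was not tested. In a fit of IR and PA alone Col1a1 passed (1 member, adjusted p = 0.0325), where the spread of NIR no longer enters. Leaving out 1 array gave 0 to 1 members in IR against NIR (Col5a2 without NIR2), 0 to 1 in IR against PA (Col1a1 without NIR3), 0 to 0 in NIR against PA and 0 to 1 in the F test (Col5a2 without NIR2, adjusted p = 0.0189, and Col1a1 without NIR3, adjusted p = 0.0439). The filter on dim genes, median centring and the second quantile normalization gave 0 in each.

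The replicate numbers gave no sign of pairing the samples, since deviations of same-numbered arrays correlated between -0.201 and 0.0942 and not every array correlated best with its own number. With the replicate block 0 members passed in each comparison and in the F test, beside 230, 164, 203 and 330 of all genes. Of 531 values of named members under the other settings 511 kept their direction, and the 20 that turned were at most 0.23 in size as reported. A fit of IR and NIR alone called 11 of all genes, beside 300 with PA in the fit, and leaving out 1 array gave 77 to 271 there, 99 to 214 beside 192 in IR against PA, 121 to 370 beside 236 in NIR against PA and 195 to 425 beside 426 in the F test. With 3 arrays a group, standard errors were largest for Col1a1 (0.29), Col5a3 (0.20), Col18a1 (0.20) and Col4a5 (0.19). In these genes single arrays stood apart from their group, among them NIR2, NIR3 and IR3. Members that were not bright had smaller standard errors, but how well such low signals follow the RNA was not tested.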
